A study of Mus musculus with 18 samples.

Results

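10 genes of angiopoietin and VEGF signalling were followed in cultured mouse cumulus cells, the granulosa cells that enclose the oocyte in an antral follicle. The genes were the ligands Angpt1, Angpt2, Vegfa, Vegfb and Vegfc, the receptors Tek, Kdr, Flt1 and Nrp1, and Fgd5, an exchange factor for the GTPase Cdc42. Every probe set annotated with exactly 1 of these 10 symbols was taken, which gave 21 of the 45037 probe sets of the array that were not Affymetrix controls, or 10 of 18193 genes. The set was chosen by pathway with earlier results of these data in view: the measured values behind the choice were the differences of oocyte-free from intact complexes, among whose largest rises stood Angpt2 without estrogen and Fgd5 with it. For the 10 genes those differences are therefore described without a test. No p is given for Angpt2 and Fgd5 in any other comparison that uses oocyte-free or intact arrays, since both took part in the choice.

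RNA of 18 samples was measured, 3 in each of 6 groups named by the sample titles. Cocultures with estrogen were complexes whose oocyte had been removed, cultured with added oocytes and with estrogen, and cocultures were the same without estrogen. Oocyte-free complexes with estrogen and oocyte-free complexes had the oocyte removed and none added. Intact complexes with estrogen and intact complexes kept their oocyte. All came from antral follicles of female mice, whose strain and age are not given in the sources used here, and all 6 groups were cultured. Expression is on a log2 scale, as made by the authors with RMA, a method that corrects background, brings all arrays to a similar distribution and summarizes each probe set. No detection calls were at hand, so a low value cannot be told from background, and the difference of a dim probe set is understated. Whether replicates were separate animals or separate dishes is not stated in the labels, so a p-value covers the spread between these samples alone, and that spread may be technical.

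Some arrays stood apart from the rest or carried labels in conflict. Replicate 3 of the oocyte-free group spanned an interquartile range of 2.53 (2.69 to 3.05 on all others), and its highest correlation with an array of its own group was 0.967, against 0.983 to 0.995 elsewhere. Replicate 1 of the oocyte-free group with estrogen carried that group in its title, while its source name and treatment label gave the group without estrogen; here it is placed by its title. Array names form 3 series of 13, 2 and 3 arrays. Series 1 held no oocyte-free array without estrogen, so the series and that group are partly confounded, and values with the series as a term of the fit are given where they move a result. The median SD of a probe set within a group was 0.24 in the oocyte-free group, against 0.13 to 0.18 in the other 5.

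Angiopoietins signal through the receptor tyrosine kinase TIE2, the product of Tek. Angiopoietin 1 activates the receptor and stabilizes vessels, while angiopoietin 2 often opposes it and loosens them. VEGF-A drives the growth of endothelial cells through the receptor encoded by Kdr, and the receptor encoded by Flt1 also binds VEGF-A and VEGF-B. Neuropilin 1 is a coreceptor for VEGF-A and for class 3 semaphorins. In the ovary these factors are known for the vessels of the theca and of the corpus luteum, whereas the cumulus is free of vessels and its cells secrete VEGF-A.

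Angpt2 was the member with the highest difference after oocyte removal without estrogen. On its brighter probe set, 1448831_at, the cocultures with estrogen read 8.52, 7.98 and 8.37, and the cocultures 6.99, 6.54 and 6.43. The oocyte-free complexes with estrogen read 11.26, 11.25 and 11.65, and the oocyte-free complexes 11.32, 11.22 and 10.16. Intact complexes with estrogen had 7.86, 7.12 and 7.20, and intact complexes 5.71, 6.13 and 6.35. All 6 oocyte-free arrays thus lay above all 12 arrays with oocytes, and the lowest of the 6 was the replicate with the narrow range. Angpt2 was 4.84 ± 0.29 log2 units (SE of the fit, 3 arrays per group) higher in oocyte-free than in intact complexes, a 28.6-fold difference, and 3.99 ± 0.29 higher with estrogen, a 15.9-fold difference. Without that replicate the first difference was 5.21, and with the array series in the fit 4.57. In bulk RNA, more cells of a type that carries a transcript and more transcript per cell cannot be told apart.

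The dimmer Angpt2 probe set, 1459636_at, followed the same order at the top. It read 6.44, 7.08 and 6.02 in oocyte-free complexes with estrogen, against 4.69, 4.81 and 4.53 in intact complexes with estrogen. Without estrogen it read 5.58, 5.62 and 5.89 in oocyte-free complexes, against 4.59, 4.85 and 4.67 in intact ones. Neither pair of groups overlapped, and the differences were 1.84 ± 0.19 with and 0.99 ± 0.19 without estrogen. The 2 probe sets share a target and are not separate evidence.

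On 1448831_at Angpt2 was also higher with estrogen where oocytes were present. It rose by 1.64 ± 0.29 in cocultures with estrogen over cocultures, a 3.11-fold change (limma adjusted p = 0.00521). In intact complexes with estrogen it was 1.33 ± 0.29 above intact complexes, a 2.51-fold difference. Neither pair of groups overlapped. The dimmer probe set did not pass in cocultures, with 0.16 ± 0.19, and had -0.03 ± 0.19 in intact complexes. In oocyte-free complexes 1448831_at was 0.49 higher with estrogen, but the arrays overlapped. Without replicate 3 of the oocyte-free group that difference was 0.12. The dimmer probe set was 0.82 higher there, with no overlap.

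Fgd5, which activates Cdc42 and is known from endothelial cells, was read by 1 probe set, 1460578_at. Cocultures with estrogen had 5.96, 6.28 and 6.91, and cocultures 7.96, 8.08 and 8.31. Oocyte-free complexes with estrogen had 11.08, 10.95 and 10.78, and oocyte-free complexes 10.49, 10.25 and 10.43. The intact complexes read 5.74, 5.90 and 5.96 with estrogen and 7.60, 7.72 and 7.15 without. The oocyte-free arrays were again the highest 6, and of the arrays with oocytes those with estrogen were the lowest. Fgd5 was 5.07 ± 0.20 higher in oocyte-free than in intact complexes with estrogen, a 33.6-fold difference, and 2.90 ± 0.20 higher without estrogen, a 7.46-fold difference. With the array series in the fit these values were 5.14 and 3.06.

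Fgd5 fell by 1.73 ± 0.20 in cocultures with estrogen relative to cocultures, a 3.33-fold change (limma adjusted p = 0.000149). The log2 difference of intact complexes with estrogen from intact complexes was -1.62 ± 0.20, 3.08-fold, with no overlap. In oocyte-free complexes all 3 arrays with estrogen lay above the 3 without it, by 0.55 ± 0.20. The array of conflicting labels was the one that read 11.08, and with it placed in the group without estrogen this difference was 0.30 and the groups overlapped. The estrogen effect in oocyte-free complexes minus that in intact complexes was 2.17 ± 0.28, for which no p is given. For the same difference of effects the Angpt2 probe sets had opposite signs, -0.84 ± 0.41 on 1448831_at and 0.84 ± 0.27 on 1459636_at.

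**Figure D1:**
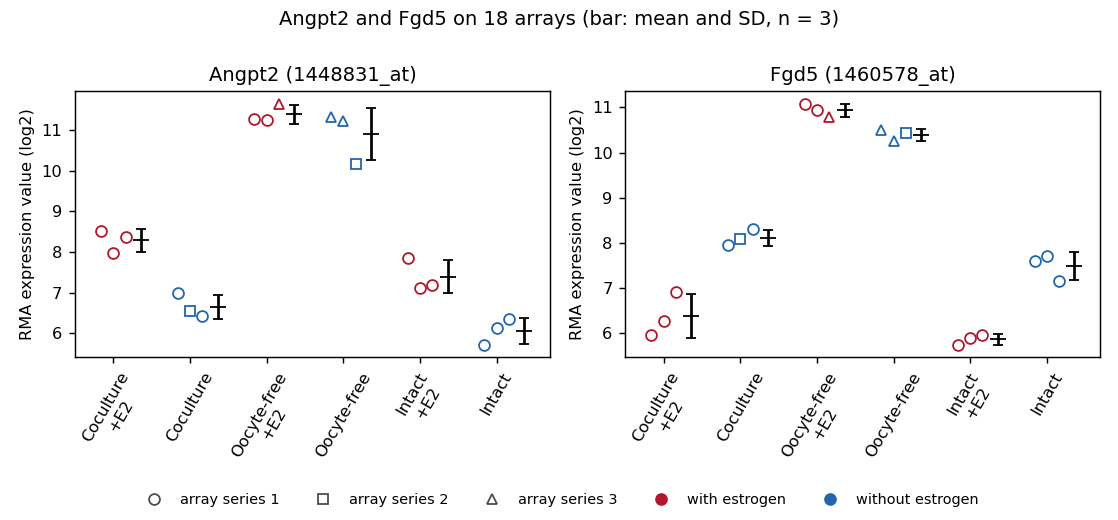
Log2 RMA expression values of Angpt2 (left) and Fgd5 (right) on each of the 18 arrays, by group, with the mean and SD of 3 arrays beside the points. Marker shape gives the array series and colour the presence of estrogen (E2); all 6 oocyte-free arrays lie at 10.16 or above in both panels, and with oocytes present estrogen goes with higher Angpt2 and lower Fgd5.

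Vegfa, the main ligand of the endothelial receptors, was read by 2 probe sets, both above the array median on all 18 arrays. Probe set 1420909_at read 8.68, 9.13 and 8.69 in cocultures with estrogen and 8.59, 7.59 and 6.83 in cocultures. It read 7.55, 7.61 and 7.50 in oocyte-free complexes with estrogen and 6.06, 5.99 and 5.97 in oocyte-free complexes. Intact complexes had 8.30, 8.61 and 8.23 with estrogen, and 7.79, 7.34 and 7.31 without. The oocyte-free group was thus the lowest of the 6 with no overlap with any other, and the 3 cocultures without estrogen had an SD of 0.88. Vegfa was 1.47 ± 0.30 lower in oocyte-free than in intact complexes and 0.83 ± 0.30 lower with estrogen.

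The second Vegfa probe set, 1451959_a_at, read 8.72, 9.13 and 9.22 in cocultures with estrogen and 8.83, 7.54 and 7.21 in cocultures. It read 7.65, 7.94 and 7.16 in oocyte-free complexes with estrogen and 7.15, 6.58 and 7.15 in oocyte-free complexes. Intact complexes with estrogen read 8.72, 8.88 and 9.30, and intact complexes 8.80, 7.98 and 7.87. Oocyte-free complexes were lower than intact ones here too, by 1.26 ± 0.36 without estrogen and 1.38 ± 0.36 with it. With the array series in the fit the first of these was -0.66 ± 0.51, while 1420909_at had -1.38 ± 0.46.

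Vegfb, a ligand of the Flt1 receptor, was among the brighter members. It read 9.21, 9.10 and 9.18 in cocultures with estrogen and 8.85, 8.71 and 8.81 in cocultures. Oocyte-free complexes with estrogen read 8.73, 8.67 and 8.19, and oocyte-free complexes 7.90, 7.79 and 6.79. Intact complexes read 9.36, 9.14 and 9.51 with estrogen and 9.36, 9.18 and 9.14 without it. The oocyte-free group without estrogen was lowest, and the oocyte-free group with estrogen overlapped the cocultures but no other group. Vegfb was 1.73 ± 0.22 lower in oocyte-free than in intact complexes, a 3.33-fold difference, and 0.81 ± 0.22 lower with estrogen. Without replicate 3 of the oocyte-free group the first difference was -1.38.

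Nrp1, the coreceptor, was read by 4 probe sets, of which 1448943_at and 1448944_at were under the array median on all 18 arrays and 1457198_at was above it on 1. Its brightest, 1418084_at, read 4.36, 4.51 and 4.48 in cocultures with estrogen and 4.94, 4.77 and 4.71 in cocultures. Oocyte-free complexes with estrogen read 5.68, 5.78 and 7.57, and oocyte-free complexes 8.26, 7.65 and 6.55. Intact complexes with estrogen read 4.63, 4.19 and 4.49, and intact complexes 5.13, 4.69 and 4.99. It was above the array median on 6 of 18 arrays. The 3 oocyte-free arrays of series 3 had the 3 highest values, replicate 3 with estrogen included. The difference of oocyte-free from intact complexes was 2.55 ± 0.42 without estrogen, 5.86-fold, and 1.91 ± 0.42 with it, 3.75-fold. It was smaller once the array series was in the fit, at 1.40 ± 0.25 without estrogen and 1.35 ± 0.18 with it. Among the arrays of series 1 alone, the difference with estrogen was 1.29 ± 0.16.

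The other Nrp1 probe sets gave smaller differences. On 1448943_at, oocyte-free complexes with estrogen read 3.58, 3.27 and 4.73, against 2.70, 2.84 and 2.55 in intact complexes with estrogen. Without estrogen the oocyte-free arrays read 4.91, 4.63 and 4.49, against 2.70, 2.82 and 2.71 in intact complexes. Neither pair overlapped, although the probe set stayed under the array median on all 18 arrays. The differences were 1.16 ± 0.25 with estrogen and 1.93 ± 0.25 without. Among the arrays of series 1 alone, the one with estrogen was 0.73 ± 0.13. On 1457198_at and 1448944_at the differences were 0.23 and 0.22 with estrogen, and 0.93 and 0.61 without. Without replicate 3 of the oocyte-free group with estrogen the first pair was 0.01 and 0.06, and without replicate 3 of the oocyte-free group the second pair was 0.57 and 0.48.

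**Figure D2:**
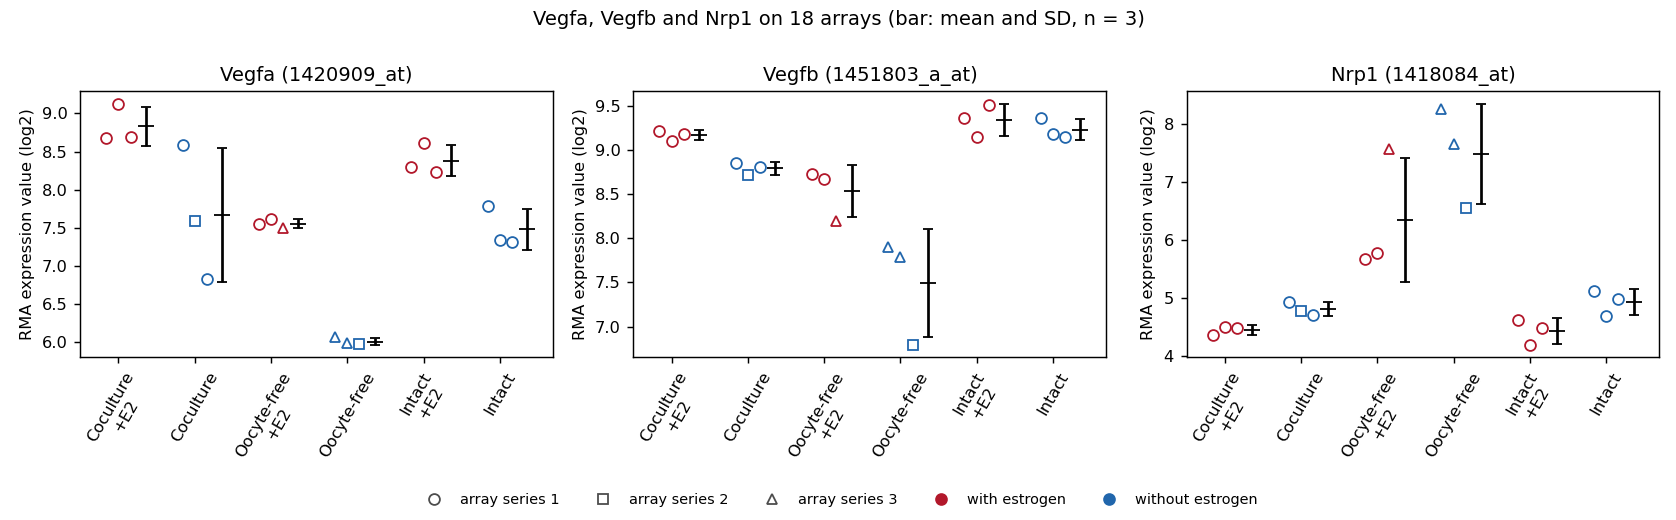
Log2 RMA expression values of Vegfa, Vegfb and Nrp1 (1 probe set each) on each of the 18 arrays, by group, with the mean and SD of 3 arrays. Marker shape gives the array series and colour the presence of estrogen (E2); oocyte-free complexes without estrogen are lowest in Vegfa and Vegfb, and the 3 highest Nrp1 values are the 3 arrays of series 3.

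Vegfc, known for lymphatic growth through the receptor encoded by Flt4, was read by 3 probe sets with group means within 1.29 log2 units. On 1439766_x_at, whose suffix marks probes that may match other transcripts, the oocyte-free complexes with estrogen read 6.23, 6.10 and 6.30. Intact complexes with estrogen read 5.68, 5.18 and 5.08, a difference of 0.90 ± 0.22. Probe set 1440739_at read 4.75, 4.38 and 4.06 in oocyte-free complexes with estrogen, against 4.07, 2.96 and 3.15 in intact complexes with estrogen, with a difference of 1.00 ± 0.27. The oocyte-free group with estrogen was the highest of the 6 groups on the first of these and did not overlap the other 5. Without estrogen both differences were small, at 0.37 ± 0.22 and 0.29 ± 0.27. Probe set 1419417_at ranged from 3.57 to 4.69 over the 18 arrays and stayed under the array median.

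Angpt1, Tek, Kdr and Flt1 were nearly level. Tek, the angiopoietin receptor, ranged from 3.88 to 4.70 over all arrays, and the 2 probe sets of Angpt1 from 4.37 to 4.87 and from 2.84 to 3.88, all of them under the array median throughout. Kdr, the main VEGF-A receptor, was above the array median on all 18 arrays but moved between 5.95 and 6.63. Of the 4 Flt1 probe sets, 1451756_at ranged from 5.39 to 6.25 and was above the median on 14 arrays, and the other 3 were under it on all 18. Over these 8 probe sets, no group mean was more than 0.49 log2 units from another of the same probe set, and none of the 8 passed a test in any comparison that was tested (lowest limma adjusted p = 0.196).

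**Figure D3:**
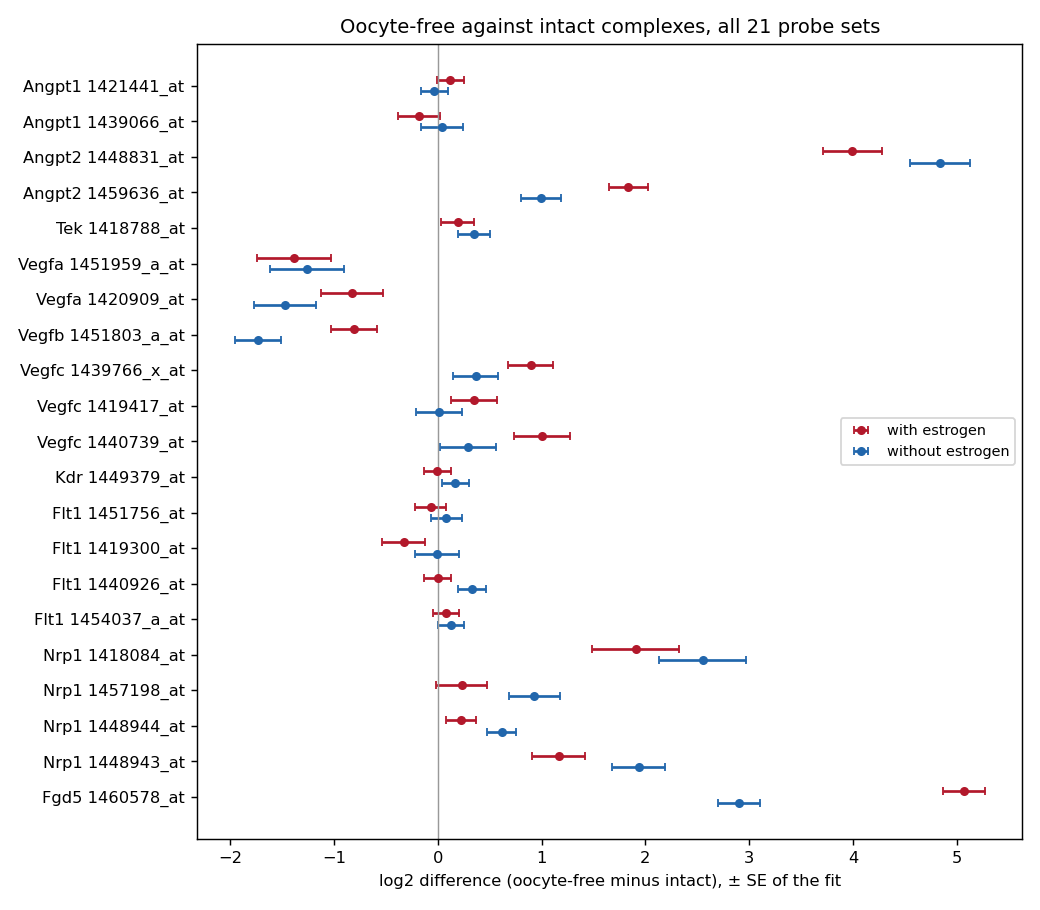
Log2 difference between oocyte-free and intact complexes for each of the 21 probe sets, with estrogen (red) and without it (blue); bars are the SE of the fit, with 3 arrays per group. Angpt2, Fgd5 and Nrp1 lie to the right of 0, Vegfa and Vegfb to the left, and Angpt1, Tek, Kdr and Flt1 near 0 on the log2 axis.

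Over the 21 probe sets, oocyte-free complexes were higher than intact ones in 13 and lower in 8 with estrogen, with a median of 0.19, against -0.01 over all probe sets. Without estrogen 16 were higher and 5 lower, with a median of 0.29, against 0.04 over all probe sets. Since the choice of genes used these comparisons, the counts are given as a description.

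Promoters of 4 of the genes that differed between oocyte-free and intact complexes are shown to set the sequence before their start sites beside these levels. They are the 250 bases before the start, from RefSeq on GRCm38.p6, which held a window for 8 of the 10 genes, without Angpt1 and Angpt2; the windows of Fgd5, Nrp1, Vegfa and Vegfb are given 5′ to 3′ on the gene's strand. They lie at chr6:91978715-91978964 on the plus strand (Fgd5), chr8:128358823-128359072 on the plus strand (Nrp1), chr17:46032378-46032627 on the minus strand (Vegfa) and chr19:6987652-6987901 on the minus strand (Vegfb). Capitals mark matches to any of 5 motifs, searched on both strands.
Fgd5: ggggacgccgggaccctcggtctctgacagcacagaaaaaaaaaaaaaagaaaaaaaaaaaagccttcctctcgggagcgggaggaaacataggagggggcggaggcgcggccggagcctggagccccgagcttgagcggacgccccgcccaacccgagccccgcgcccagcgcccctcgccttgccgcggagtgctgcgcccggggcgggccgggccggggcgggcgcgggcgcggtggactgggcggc
Nrp1: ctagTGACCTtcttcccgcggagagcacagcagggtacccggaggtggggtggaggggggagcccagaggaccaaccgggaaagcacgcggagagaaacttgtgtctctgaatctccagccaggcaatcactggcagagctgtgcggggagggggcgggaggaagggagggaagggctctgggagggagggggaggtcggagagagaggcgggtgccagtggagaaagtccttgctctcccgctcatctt
Vegfa: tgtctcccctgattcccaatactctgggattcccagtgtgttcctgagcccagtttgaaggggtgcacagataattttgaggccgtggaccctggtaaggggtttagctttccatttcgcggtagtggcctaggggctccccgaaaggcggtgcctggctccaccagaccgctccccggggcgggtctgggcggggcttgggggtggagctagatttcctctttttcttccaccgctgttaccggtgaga
Vegfb: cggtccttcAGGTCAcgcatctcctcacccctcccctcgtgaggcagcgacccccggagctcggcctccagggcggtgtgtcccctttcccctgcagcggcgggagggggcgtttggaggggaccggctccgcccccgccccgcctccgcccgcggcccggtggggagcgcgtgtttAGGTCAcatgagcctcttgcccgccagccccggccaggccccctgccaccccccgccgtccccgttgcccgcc

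The nuclear receptor motif AGGTCA was matched at base -246 of Nrp1 on the minus strand and at bases -241 and -73 of Vegfb on the plus strand. That motif occurs in 14.0% of 32851 windows of this length. The hypoxia response core ACGTG (16.6% of windows) was matched at base -211 of a second Vegfa start. That window, chr17:46025164-46025413 on the minus strand, lies downstream of the Vegfa window printed above, which had no match. The forkhead motif GTAAACA (3.17%), the AP-1 motif TGACTCA (4.46%) and the estrogen response element, the inverted repeat of GGTCA around 3 free bases (0.0639%), had no match in the 9 windows of the 8 genes, which says only that these letters are not there.

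Cocultures were set against oocyte-free complexes to see what added oocytes did to these genes: at least 1 probe set of Vegfa rose and at least 2 of Nrp1 fell, with and without estrogen. These comparisons share the oocyte-free arrays with those above. Without estrogen, 2 of the 18 probe sets tested rose in cocultures over oocyte-free complexes, where 8.87% of all probe sets rose, and 4 fell, where 7.83% of all fell. Vegfa 1420909_at rose by 1.66 ± 0.30, 3.17-fold (limma adjusted p = 0.000924), and Vegfb by 1.30 ± 0.22, 2.46-fold (limma adjusted p = 0.000697). The second Vegfa probe set did not pass, with 0.90 ± 0.36 (limma adjusted p = 0.102). All 4 Nrp1 probe sets passed: 1418084_at fell by 2.68 ± 0.42 (limma adjusted p = 0.000307) and 1448943_at fell by 1.96 ± 0.25 (limma adjusted p = 5.32e-05). Probe set 1448944_at fell by 0.57 and 1457198_at fell by 0.80 (limma adjusted p = 0.0104 and 0.0337). Angpt2 and Fgd5 had log2 differences of -4.25 ± 0.29 and -2.27 ± 0.20, cocultures minus oocyte-free complexes.

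With the array series in this fit, Nrp1 1418084_at fell by 1.56, a 2.95-fold change in place of 6.41-fold. Nrp1 1448944_at and 1457198_at then no longer passed (limma adjusted p = 0.107 and 0.0872). The call of 1457198_at was also lost without oocyte-free replicate 2 or 3 (limma adjusted p = 0.0523 and 0.125) and without coculture replicate 1 or 3 (limma adjusted p = 0.0885 and 0.118). Series 2 held 1 coculture and that replicate, and there the coculture minus oocyte-free values were -3.62 and -1.31 for Angpt2 1448831_at and 1459636_at, -2.35 for Fgd5 and 1.92 for Vegfb. They were 1.62 and 0.39 for Vegfa 1420909_at and 1451959_a_at, and -1.78 for Nrp1 1418084_at.

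With estrogen, 2 of the 18 rose in cocultures over oocyte-free complexes, where 5.98% of all probe sets rose, and 4 fell, where 5.22% of all fell. Both Vegfa probe sets rose, 1420909_at by 1.28 ± 0.30 (limma adjusted p = 0.00916) and 1451959_a_at by 1.44 ± 0.36 (limma adjusted p = 0.0139). Nrp1 fell by 1.89 ± 0.42 on 1418084_at and by 1.17 ± 0.25 on 1448943_at (limma adjusted p = 0.00682 and 0.00597). Vegfc fell by 0.74 ± 0.22 on 1439766_x_at and by 1.00 ± 0.27 on 1440739_at (limma adjusted p = 0.0357 and 0.0257). Vegfb had a difference of 0.63 ± 0.22 (limma adjusted p = 0.0868). Angpt2 and Fgd5 had log2 differences of -3.10 ± 0.29 and -4.55 ± 0.20.

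Several of these calls did not outlast the loss of 1 array. Without the array of conflicting labels both Vegfc calls were lost (limma adjusted p = 0.0814 and 0.104). The call of 1439766_x_at was lost without any 1 of the 6 arrays compared (limma adjusted p = 0.0580 to 0.123), and that of 1440739_at also without replicate 2 with estrogen of the oocyte-free group or replicates 1 or 3 of the cocultures with estrogen (limma adjusted p = 0.0607, 0.0973 and 0.0855). Vegfa 1451959_a_at missed the threshold without replicate 3 of either group (limma adjusted p = 0.0693 without the oocyte-free and 0.0617 without the coculture array). Within series 1, which leaves out replicate 3 of the oocyte-free group with estrogen, Vegfa had 1.25 and 1.23 and no longer passed (limma adjusted p = 0.0539 and 0.0767), and Vegfb rose by 0.46 (limma adjusted p = 0.0238). Nrp1 1418084_at fell by 1.28 there (limma adjusted p = 0.000215). With the compared groups alone in the fit the 2 Nrp1 calls were lost (limma adjusted p = 0.0555 for 1418084_at and 0.0979 for 1448943_at).

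Cocultures were compared with intact complexes to see how far added oocytes brought the genes to the level of complexes never opened. None of the 18 probe sets tested passed with or without estrogen, and 0% of all probe sets were called higher and 0% lower. At an unadjusted p under 0.05, limma gave 0 of the 18 with estrogen, and 978 of all 45037 probe sets. Without estrogen it gave 2 of the 18, and 2031 of all. On 1448831_at Angpt2 was 0.90 ± 0.29 higher in cocultures with estrogen than in intact complexes with estrogen. Without estrogen it was 0.59 ± 0.29 higher, and neither pair of groups overlapped. The dimmer Angpt2 probe set, 1459636_at, had 0.12 with and -0.07 without estrogen, and both pairs overlapped. Fgd5 had differences of 0.52 ± 0.20 and 0.63 ± 0.20, Vegfb of -0.17 ± 0.22 and -0.44 ± 0.22, and Nrp1 1418084_at of 0.01 ± 0.42 and -0.13 ± 0.42, in the same order. A p that misses the threshold does not show that the levels were alike.

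Estrogen was compared with its absence in each culture. In cocultures 1 of 21 rose, where 0.884% of all probe sets rose, and 1 fell, where 0.915% of all fell: Angpt2 and Fgd5. In intact complexes none of the 18 tested passed, where 1.10% of all probe sets rose and 0.830% fell. At an unadjusted p under 0.05 limma gave 1 of the 18 there, and 5581 of all 45037 probe sets. Vegfa was higher with estrogen without passing, by 1.16 ± 0.30 and 1.16 ± 0.36 on its 2 probe sets in cocultures (limma adjusted p = 0.0631 and 0.148). Without coculture replicate 1 both rose, by 1.62 ± 0.21 and 1.65 ± 0.30 (limma adjusted p = 0.000881 and 0.00993). In intact complexes the values were 0.90 ± 0.30 and 0.75 ± 0.36 (limma adjusted p = 0.182 and 0.407). There 1420909_at passed with the compared groups alone in the fit (limma adjusted p = 0.0393), and without coculture replicate 1 or 3, which enter the shared spread (limma adjusted p = 0.0224 and 0.0466).

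In oocyte-free complexes 2 of the 18 tested rose with estrogen, where 2.39% of all probe sets rose, and none fell, where 1.89% of all fell. At an unadjusted p under 0.05 limma gave 9 of the 18, and 9951 of all 45037 probe sets. Vegfa 1420909_at rose by 1.55 ± 0.30, 2.92-fold (limma adjusted p = 0.00775), and Vegfb by 1.04 ± 0.22, 2.05-fold (limma adjusted p = 0.0157). Vegfa 1451959_a_at had 0.62 ± 0.36 and did not pass (limma adjusted p = 0.312). Vegfc 1440739_at had 1.00 ± 0.27 (limma adjusted p = 0.0512) and Nrp1 1418084_at -1.14 ± 0.42 (limma adjusted p = 0.135). These groups lie mostly in different array series. With the series in the fit Vegfa had 1.48 (limma adjusted p = 0.0763) and Vegfb 0.83 (limma adjusted p = 0.0883), and neither passed.

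Within series 3, which held 1 array with estrogen and 2 without, the difference was 1.48 for Vegfa 1420909_at, 0.295 for Vegfa 1451959_a_at, 0.34 for Vegfb and -0.39 for Nrp1 1418084_at. The array of conflicting labels read 7.55 for Vegfa 1420909_at, beside 7.61 and 7.50 on the other arrays with estrogen. With that array placed in the group without estrogen neither call held. Vegfa 1420909_at then had 1.16 and Vegfb 0.63 (limma adjusted p = 0.726 and 0.792). Vegfb did not pass without that array (0.94, limma adjusted p = 0.0856), nor without replicate 2 with estrogen (0.97, limma adjusted p = 0.0592). It also missed the threshold with the compared groups alone in the fit (limma adjusted p = 0.265). Without replicate 3 of the oocyte-free group with estrogen, 7 of the 18 passed, the 4 Nrp1 probe sets among them, with 1418084_at at -1.76 (limma adjusted p = 0.00492), but the arrays then left with and without estrogen share no array series, so series and estrogen cannot be told apart there. Without the array of conflicting labels 1418084_at had -0.81 (limma adjusted p = 0.412). Without replicate 3 of the oocyte-free group, Nrp1 1418084_at fell by 1.61 with estrogen (limma adjusted p = 0.0371).

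The estrogen effect in oocyte-free complexes minus that in intact complexes passed for none of the 18 members tested, where 0.637% of all probe sets were called higher and 0.504% lower. At an unadjusted p under 0.05 limma gave 2 of the 18, and 4380 of all 45037 probe sets. Vegfb had 0.93 ± 0.32 (limma adjusted p = 0.260) and Vegfa 1420909_at 0.65 ± 0.42 (limma adjusted p = 0.708).

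**Figure D4:**
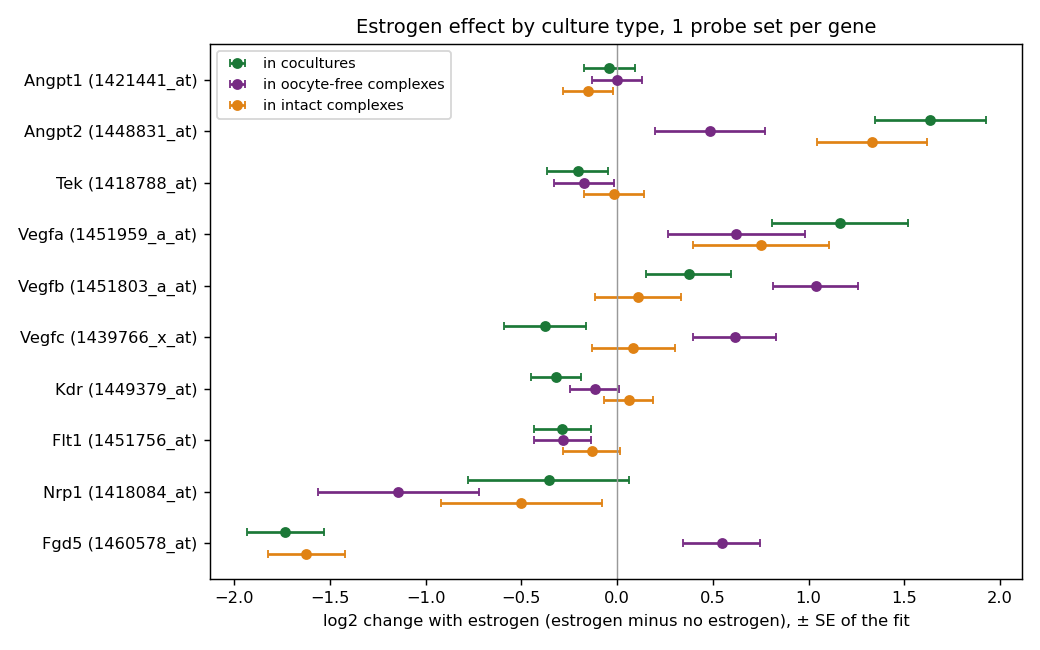
Log2 change with estrogen for 1 probe set of each of the 10 genes (the one with the highest mean), in cocultures, oocyte-free complexes and intact complexes; bars are the SE of the fit, with 3 arrays per group. Fgd5 lies to the left of 0 in cocultures (-1.73) and intact complexes (-1.62) and to the right in oocyte-free complexes (0.55). Angpt2 lies to the right in all 3, but in oocyte-free complexes its arrays overlapped (0.49, and 0.12 without oocyte-free replicate 3).

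Other genes of the pathway were read from a list of 33, of which 32 had a probe set, with 1 probe set per gene. In oocyte-free over intact complexes with estrogen 4 rose and 4 fell, where 8.09% of all genes rose and 10.8% fell. Without estrogen 5 rose and 2 fell, where 12.0% of all genes rose and 13.1% fell. Nrp2, the coreceptor that binds VEGF-C and semaphorins, rose in both, by 3.86 ± 0.30 with estrogen (14.6-fold) and 3.83 ± 0.30 without (14.2-fold). Without estrogen Adamts1, a secreted protease, rose by 1.36, and Svep1, an extracellular matrix protein, by 1.01. With estrogen Angpt4, a further TIE2 ligand, fell by 2.20 and Shb, an adaptor of Kdr signalling, by 1.48. This list and those below were chosen with earlier results of these data known. Their calls between oocyte-free and intact complexes are therefore a description and no separate support.

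With estrogen, 2 genes of the list rose and 1 fell in cocultures, where 1.31% of all genes rose and 1.39% fell, and 3 rose and 1 fell in intact complexes, where 1.70% rose and 1.25% fell. Angpt4 rose by 1.66 ± 0.20 in cocultures with estrogen (3.17-fold, limma adjusted p = 0.000217) and by 2.06 ± 0.20 in intact complexes with estrogen (4.18-fold, limma adjusted p = 2.25e-05). Flt4, the receptor of VEGF-C, rose by 0.87 and 0.97 in the same comparisons. Plxnd1, a semaphorin receptor, rose by 0.95 in intact complexes, and Sema3c, a secreted semaphorin, fell by 1.67 in cocultures.

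Vegfa is a textbook target of hypoxia signalling, and 22 genes of that response were read beside it. In oocyte-free over intact complexes 3 rose and 8 fell with estrogen, where 8.09% of all genes rose and 10.8% fell, and 3 rose and 8 fell without it, where 12.0% rose and 13.1% fell. With estrogen P4ha2, a collagen prolyl hydroxylase, fell by 2.21 and Bnip3, a mitochondrial protein of cell death and mitophagy, by 1.48, while Adm, the peptide adrenomedullin, rose by 2.12. Without estrogen P4ha2 fell by 2.10, Pdk1, a kinase that restrains pyruvate entry to mitochondria, by 1.97 and Ldha, a lactate dehydrogenase, by 1.79. With estrogen 1 gene of this list rose and 1 fell in cocultures, where 1.31% of all genes rose and 1.39% fell, and 3 rose and 2 fell in intact complexes, where 1.70% rose and 1.25% fell. Epas1, a hypoxia-inducible transcription factor, rose in both, by 1.26 ± 0.20 and 1.48 ± 0.20. Ankrd37 fell with estrogen in both, by 1.48 and by 1.54, and Ddit4, an inhibitor of mTORC1, by 1.50 in intact complexes.

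Markers of the cells a complex could hold were read on the same arrays. Of 9 granulosa and cumulus markers with a probe set, 8 were above the array median on all 18 arrays. Their mean log2 level was 9.82 to 10.14 in oocyte-free complexes with estrogen, against 10.63 to 10.88 in intact complexes with estrogen, and 9.24 to 9.37 in oocyte-free complexes, against 9.82 to 10.02 in intact ones. None rose and 5 fell with estrogen, and 2 rose and 5 fell without it, Fshr, the FSH receptor, by 2.02 and by 1.32. Without estrogen Slc38a3 averaged 6.79 in oocyte-free and 9.29 in intact complexes, and Foxl2 11.63 and 10.60. With estrogen 3 of the 9 granulosa and cumulus markers rose and none fell in cocultures and in intact complexes. Of the 13 endothelial markers, Esam and Egfl7 were above the array median on all 18 arrays and Mmrn2 on 16. Another 7 were under it on all 18, Pecam1, Cdh5, Emcn, Tie1, Vwf, Sox17 and Robo4. The mean log2 level over the 13 was 4.68 to 4.70 in oocyte-free complexes with estrogen, against 4.91 to 5.03 in intact complexes with estrogen. Without estrogen it was 4.86 to 5.11 in oocyte-free complexes, against 4.80 to 4.93 in intact ones. No endothelial marker rose in oocyte-free complexes, and 3 fell with estrogen, Vwf by 1.23. Vwf rose with estrogen, by 1.04 in cocultures and by 1.41 in intact complexes, while under the array median throughout. The other 12 endothelial markers did not pass in either comparison, and the medians of the list were -0.10 and -0.04.

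The theca and stroma list had 6 genes with a probe set and a mean log2 level of 5.35 to 5.64 in oocyte-free complexes with estrogen, against 4.91 to 4.98 in intact complexes with estrogen. It was 5.68 to 6.12 in oocyte-free complexes, against 4.84 to 4.96 in intact ones. Of the 6, Dcn, a matrix proteoglycan, rose in oocyte-free complexes, by 3.39 ± 0.23 with estrogen and by 4.48 ± 0.23 without, and no other passed. Col1a1, Col1a2 and Lum were under the array median on all 18 arrays. The theca and stroma genes did not pass with estrogen in cocultures or in intact complexes.

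Of the 7 pericyte and smooth muscle markers, 1 rose and 1 fell in oocyte-free complexes with estrogen, and none rose and 2 fell without it. Their mean log2 level was 6.38 to 6.67 in oocyte-free complexes with estrogen, against 6.28 to 6.44 in intact complexes with estrogen, and 6.68 to 6.88 in oocyte-free complexes, against 7.09 to 7.41 in intact ones. Acta2, a smooth muscle actin, rose by 2.98 ± 0.32 with estrogen and fell by 1.91 ± 0.32 without. Pdgfrb averaged 6.57 in oocyte-free against 8.54 in intact complexes with estrogen, and 8.73 against 7.49 without. Cspg4 averaged 5.91 in oocyte-free against 6.20 in intact complexes with estrogen, and 7.09 against 9.36 without. With estrogen Acta2 fell by 2.59 in cocultures and fell by 3.34 in intact complexes, and Cspg4, a proteoglycan of pericytes, fell by 3.00 and fell by 3.16. Pdgfrb, Cspg4, Acta2 and Des were above the array median on all 18 arrays, and Rgs5 and Myh11 were under it on all 18. Of 6 blood and immune markers with a probe set, Cd68 fell by 0.69 with estrogen and no other passed in these comparisons. None of the 9 oocyte markers passed in oocyte-free against intact complexes, or with estrogen in cocultures and in intact complexes. The part of these other cell types in the results for the members was not tested.

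The genes whose 6 group means followed a member most closely were sought among 6607 probe sets with 1 symbol and group means that spanned at least 1 log2 unit. For Angpt2 they were Zfp28 (Pearson r = 0.998), Spint2 (0.997) and Me2 (0.997). Me2, a mitochondrial malic enzyme, averaged 11.65 in oocyte-free complexes with estrogen, against 8.90 in intact complexes with estrogen, and 11.55 in oocyte-free complexes, against 8.04 in intact ones. For Fgd5 they were Nxnl2 (0.999), Pde5a (0.998) and Fam126a (0.997). For Vegfa 1451959_a_at they were Cemip2 (0.998), Dok7 (0.997) and Hey2 (0.996). These r are over 6 group means of the same arrays and describe likeness alone.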

How the data were processed

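RNA from cumulus cells of 18 samples was extracted with a silica column kit, amplified in successive rounds, biotin-labelled and hybridised to Affymetrix mouse genome arrays, per the labels' protocols. Per the submitters' processing notes, the authors used RMA and Affymetrix Expression Console 1.1; the deposited log2 values have 2 decimals. Quantile normalization in RMA hides a shift of most transcripts in 1 direction. Precision is limited by how many arrays there were.

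The table held 45101 probe sets, 64 of them controls. Symbols came from the platform annotation, updated through Entrez identifiers with a RefSeq table of GRCm38.p6 (34741 probe sets); 34945 probe sets had 1 symbol, 932 several and 9160 none listed. Which genome build the authors worked with is unstated in these sources.

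Differences were fitted with limma 3.58.1 in R 4.3.3 (lmFit, eBayes), with 6 group means on all 45037 probe sets, no filter, and Benjamini-Hochberg adjustment over all of them. A probe set was called at an adjusted p under 0.05, two-sided. There were 10 contrasts. The SE uses 1 estimate of the spread over the 6 groups. The fit was tested on simulated data. For genes outside the 10, the brightest probe set on average stood for the gene. All probe sets of the 10 genes are named; of each other list the rule took, per comparison, up to 3 called genes with the largest change. Of the members, Angpt2 and Fgd5 were given a p for estrogen in cocultures alone, the comparison without oocyte-free or intact arrays. The members, the lists and the tests were chosen with earlier results of these data known. Alternatives changed the filter, the normalization, the prior trend, array weights, the array series, the replicate block, the groups in the fit, the probe set per gene, the arrays left out and the place of the 2 arrays in doubt.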

Additional observations from a re-analysis of the deposited data

Results flagged for a closer look

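In 5 cases the samples moved in opposite directions with the same treatment, either between cultures or between the presence and absence of estrogen. None of these differences of effects was tested. Fgd5 had an estrogen effect in oocyte-free complexes minus that in intact complexes of 2.17, and an effect in cocultures minus that in oocyte-free complexes of -2.28. All 5 cases place the array of conflicting labels by its title. With it placed in the group without estrogen the first Fgd5 value was 1.93, and the oocyte-free Fgd5 groups overlapped. For Vegfc 1440739_at the estrogen effect in cocultures minus that in oocyte-free complexes was -1.49, and the effect of added oocytes with estrogen minus that without estrogen was also -1.49, since both come from the same 4 groups. For Vegfc 1439766_x_at the estrogen effect in cocultures minus that in oocyte-free complexes was -0.99. The Vegfc levels were near or under the array median.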

How the results depend on the processing

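No called value of a member changed sign, nor did a described value of at least 1 log2 unit. Smaller described values were not counted as reversed. Angpt2 1459636_at ranged from -0.12 to 0.03 for cocultures minus intact complexes without estrogen. For estrogen in intact complexes it ranged from -0.09 to 0.05. Of 459 single values with a test, each under 1 alternative, 410 kept their call and 49 lost it. Of 1188 described values 1183 moved by less than 1 SD, taken as the largest of the 6 group SDs of that probe set. This is a lenient measure. The Vegfa 1451959_a_at difference after oocyte removal without estrogen, -1.26, reached -0.58 and was still counted as unmoved. The other 5 were differences of oocyte-free from intact complexes without estrogen. Of these, 4 were of Nrp1 (1.10 to 1.45 with the series term). The last was of the dimmer Angpt2 probe set (1.61 with the series term and the conflicting array left out). Where the construction of an alternative does not show it, the cause was not tested. The count of members called in estrogen over no estrogen in oocyte-free complexes was 2, and was 1 with 1 probe set per gene or with the compared groups alone, 0 with the array series as a term or with the conflicting array placed in the group without estrogen, and 4 with array weights or a prior trend. It was also 0 with the series term and that array left out, and 0 with both doubted arrays left out, which were chosen after seeing the data. For added oocytes without estrogen the count of 6 became 2 with 1 probe set per gene and 3 with the filter on low values. For added oocytes with estrogen the count of 6 became 3 with 1 probe set per gene, 2 with the series term and the conflicting array left out, and 3 with that array placed in the other group. For estrogen in cocultures the count of 2 became 4 with array weights, and in intact complexes the count of 0 became 1 with the compared groups alone. With 1 array left out in turn, the counts ranged from 5 to 6 (added oocytes without estrogen), 3 to 7 (with estrogen), 0 to 1 (estrogen in intact complexes), 1 to 7 (in oocyte-free complexes), 2 to 4 (in cocultures) and 0 to 1 (the difference of effects); without coculture replicate 1, both Vegfa probe sets passed in cocultures. Over the same fits Angpt2 was 4.63 to 5.21 higher after oocyte removal, and Fgd5 5.00 to 5.15 with estrogen. Series 1 alone could give no value for oocyte-free complexes without estrogen.

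Same-numbered arrays showed no clear shared deviation (correlations of -0.524 to 0.497, median -0.012, over 0.1 in 16 of 45 pairs). Of 18 arrays, 7 correlated best with their own number. The main fit did not use the numbers as pairs. This check cannot exclude a pairing, since the deviations were taken from means of 3 arrays. With the replicate block the counts were 6 and 5 for added oocytes without and with estrogen, 0, 2 and 3 for estrogen in intact, oocyte-free and coculture complexes, and 0 in the others.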
